A study of Mus musculus with 12 samples.

Results

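The p53, MDM and GADD45 genes described here are Trp53, Mdm2, Mdm4, Ccng1, Zmat3, Phlda3, Trp53inp1, Gadd45a, Gadd45b and Gadd45g, 10 of the 53351 genes in the deposited table, chosen by name and each found in 1 row. Their levels were read in wild-type primary neural progenitor cells, dissociated from E13.5 mouse cerebral cortex and cultured overnight with bFGF and EGF. Torin1, which inhibits mTOR, a kinase that controls growth and translation, was then added at 250 nM for 2 h, with DMSO as the control, and all cultures were given cycloheximide at 100 ug/ml for 5 min before lysis, which holds ribosomes on mRNA. Of each lysate 10% was kept as total mRNA, and the polysome mRNA came from gradient fractions in which an mRNA carries more than 3 ribosomes. The 4 groups, total DMSO, total Torin1, polysome DMSO and polysome Torin1, held 3 biological replicates each. The labels do not say whether the replicates were separate litters, so p-values measure the spread between these libraries.

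Levels are given per 1000000 units of scaled signal (ppm), as mean ± SD over n = 3 libraries. Each library was scaled to its own signal, so levels are relative to the other RNAs of that library. A change shared by most mRNAs of a fraction, such as less polysome mRNA as a whole, does not show in these levels. How many reads lie behind them is unknown. The deposited values of a library summed to between 14341674 and 19201406. Total Torin1 replicate 2 stood apart in the noncoding RNA Rn7sk, with 2069 ppm against 38.7 to 183 ppm in the other total libraries, and results for total mRNA were also computed without it. All 13 radial glia markers were detected, with a summed level of 3669 to 3773 ppm in total DMSO, beside 3115 to 3180 ppm for 10 neuronal markers. Levels of 8 microglial markers summed to 11.2 to 17.6 ppm there, and those of 6 red blood cell markers to 1486 to 1595 ppm, so the cultures held RNA of other cell types. In such bulk samples fewer cells of a type and less RNA per cell cannot be told apart.

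The transcription factor p53, encoded by Trp53, is kept scarce by the ubiquitin ligase MDM2 and its relative MDM4, and Mdm2 is itself a p53 target, which closes a negative feedback loop. Most control of p53 acts on the protein, through its degradation and modification, and is not seen in mRNA. Ccng1, Zmat3, Phlda3, Trp53inp1 and Gadd45a are textbook p53 targets, while Gadd45b and Gadd45g respond mainly to other stress, cytokine and developmental signals. In the developing cortex excess p53 activity is known to remove progenitors, and Gadd45g is expressed in newly committed cells.

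Promoter sequence is shown for Mdm2 and Phlda3, which fell with Torin1, for Gadd45g, which rose, and for Ccng1, which held the closest match to a whole p53 site. The sequences are the 250 bases before the annotated start, from RefSeq (GRCm38.p6), 5′ to 3′ on the strand of the gene. RefSeq promoters were found for 8 of the 10 genes, as 9 entries. Zmat3 and Trp53inp1 had none. The windows of Ccng1, of Trp53 and of an Mdm4 entry overlap the gene spans given below, so their annotated starts lie inside those spans. Capitals mark matches, on either strand, to the 10-base p53 binding unit, called the p53 decamer here, to CACGTG (the E-box), to GTAAACA (a forkhead motif), to TGANTCA (the AP-1 motif), to TATAAA, and to a p53 site of 20 bases made of a pair of adjoining decamers with at most 1 mismatch. The motifs were chosen after the sequences were seen.
Ccng1 (chr11:40755287-40755536, minus strand): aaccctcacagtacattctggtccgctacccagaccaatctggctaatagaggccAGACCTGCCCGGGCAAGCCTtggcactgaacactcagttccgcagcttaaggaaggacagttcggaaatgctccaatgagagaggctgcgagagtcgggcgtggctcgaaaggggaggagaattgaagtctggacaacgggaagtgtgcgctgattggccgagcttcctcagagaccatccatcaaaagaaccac
Mdm2 (chr10:117710759-117711008, minus strand): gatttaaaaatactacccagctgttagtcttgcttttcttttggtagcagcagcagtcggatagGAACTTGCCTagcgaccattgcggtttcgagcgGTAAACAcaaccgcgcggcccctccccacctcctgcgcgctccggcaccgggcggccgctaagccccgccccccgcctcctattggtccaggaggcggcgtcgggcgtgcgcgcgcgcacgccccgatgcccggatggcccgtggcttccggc
Phlda3 (chr1:135765835-135766084, plus strand): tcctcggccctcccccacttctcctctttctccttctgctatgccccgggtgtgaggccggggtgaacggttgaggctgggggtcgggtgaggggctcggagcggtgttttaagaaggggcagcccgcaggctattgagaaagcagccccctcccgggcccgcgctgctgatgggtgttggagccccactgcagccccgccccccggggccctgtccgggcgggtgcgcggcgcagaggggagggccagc
Gadd45g (chr13:51846425-51846674, plus strand): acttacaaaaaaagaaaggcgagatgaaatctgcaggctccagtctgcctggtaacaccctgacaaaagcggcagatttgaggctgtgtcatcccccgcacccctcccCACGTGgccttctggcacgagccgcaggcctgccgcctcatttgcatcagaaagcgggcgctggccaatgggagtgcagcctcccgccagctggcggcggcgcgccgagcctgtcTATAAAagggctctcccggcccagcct

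In Ccng1 the capitals cover a 20-base p53 site, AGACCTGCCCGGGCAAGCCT, from 195 to 176 bases before the start, whose last 10 bases match the decamer exactly. Such a site was found in 25 of 32851 RefSeq promoters, 0.0761%. In Mdm2 the first capitals are a p53 decamer, GAACTTGCCT, from 186 to 177 bases before the start, and the second are GTAAACA. The known p53 sites of Mdm2 lie in its first intron, outside this window. A decamer was present in 7.13% of all promoters and in 4 of the 9 entries here, those of Ccng1, Mdm2, Trp53 and Gadd45a. Gadd45g held CACGTG, found in 6.02% of all promoters and shared with Gadd45b here, and TATAAA, found in 12.4%. No searched motif was present in the Phlda3 window. A match describes letters only, and binding was not measured.

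Phlda3, Mdm2 and Zmat3 fell and Gadd45g rose with Torin1, in total and in polysome mRNA. Phlda3 moved most, from 7.98 ± 0.212 to 4.12 ± 0.219 ppm in total mRNA and from 15.97 ± 1.36 to 7.14 ± 0.823 ppm in polysome mRNA (SD, n = 3). Trp53, Mdm4, Ccng1, Trp53inp1, Gadd45a and Gadd45b passed the test in neither fraction. In limma's test across all 20240 genes tested, an adjusted p below 0.05 was met by 4 of the 10 members in total mRNA, 1 higher and 3 lower. Of all genes tested 7.39% met it (3.04% higher and 4.35% lower). In polysome mRNA it was again 4 of 10, 1 higher and 3 lower, against 10.0% of all genes (4.57% higher and 5.45% lower). The test takes 1 estimate of the spread per gene from all 12 libraries. In fits of the compared groups alone more genes passed in total than in polysome mRNA. The median log2 fold of the 10 members was -0.14 in total and -0.03 in polysome mRNA, against -0.01 and 0.00 for all genes tested. With a fold of at least 1.5 also asked for, 1 of 10 passed in total mRNA (3.18% of all genes) and 2 in polysome mRNA (4.67%). Torin1 and DMSO libraries did not overlap for 7 members in total mRNA, 6 lower (18.7% of all genes) and 1 higher (14.7%), and for 4 in polysome mRNA, 3 lower (12.3%) and 1 higher (11.7%), where 24.0% of all genes did not overlap in either direction. The plot of levels by library shows every value.

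**Figure D1:**
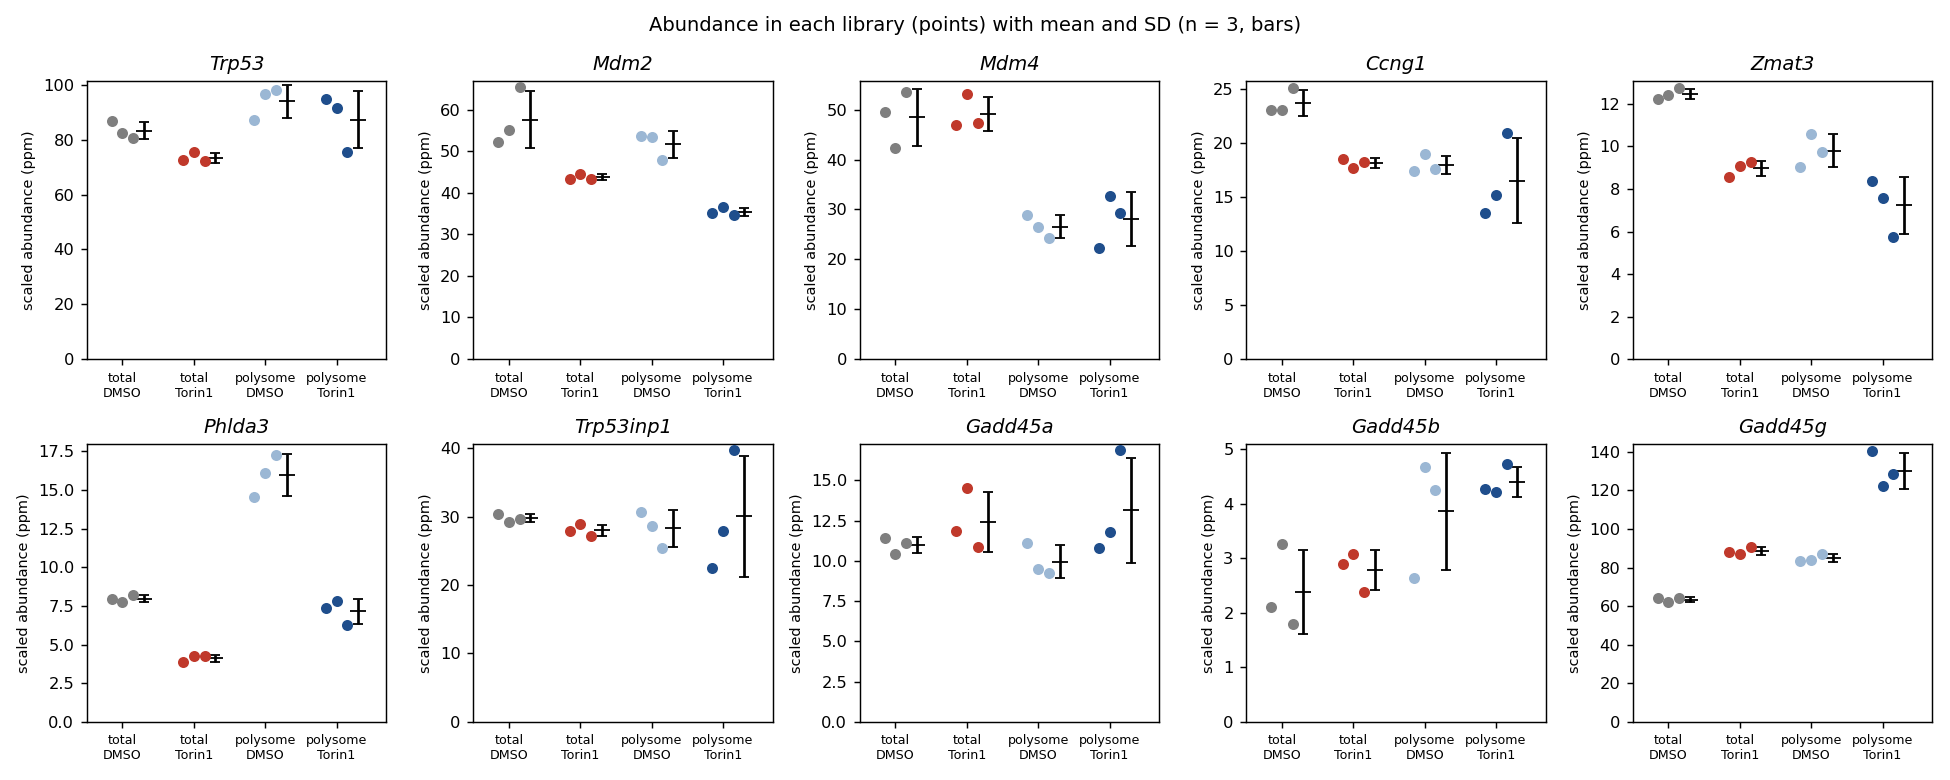
Scaled abundance (ppm, linear axis from 0) of the 10 genes in the 12 libraries, with 1 panel per gene; points are libraries ordered by replicate number, and bars are the mean ± SD of 3 libraries. Phlda3, Mdm2 and Zmat3 lie lower and Gadd45g higher in every Torin1 library than in any DMSO library of the same fraction. Polysome Torin1 replicate 3 is the highest of its group for Gadd45a, Gadd45b, Ccng1 and Trp53inp1. The same library is the lowest of its group for Trp53, Mdm2, Zmat3 and Phlda3.

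Phlda3 encodes a pleckstrin homology protein that competes with AKT for membrane lipids and so restrains AKT (chromosome 1, 135766085 to 135769134, GRCm38). In total mRNA it stood at 7.96, 7.77 and 8.19 ppm in the DMSO libraries and at 3.86, 4.23 and 4.25 ppm in the Torin1 libraries. In polysome mRNA the values were 14.6, 16.1 and 17.3 ppm in DMSO and 7.37, 7.83 and 6.23 ppm in Torin1. The groups were far apart in both fractions, with no overlap. Its log2 fold was -0.95 ± 0.11 (SE) in total mRNA (limma, adjusted p = 0.000815) and -1.16 ± 0.11 in polysome mRNA (limma, adjusted p = 8.28e-05). Of all genes tested 4.04% had a lower fold in total mRNA and 3.15% in polysome mRNA. Without total Torin1 replicate 2 the total fold was -0.97 (limma, adjusted p = 0.0038).

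Mdm2 encodes the ubiquitin ligase that marks p53 for degradation (chromosome 10, 117688875 to 117710758). Total DMSO libraries had 52.3, 55.0 and 65.4 ppm and total Torin1 libraries 43.4, 44.6 and 43.2 ppm. In polysome mRNA DMSO gave 53.8, 53.4 and 48.0 ppm and Torin1 35.1, 36.5 and 34.8 ppm. All Torin1 libraries lay below all DMSO libraries in each fraction, and total DMSO replicate 3 was the highest of all. The log2 fold was -0.39 ± 0.08 in total mRNA (limma, adjusted p = 0.0152), and -0.54 ± 0.08 in polysome mRNA (limma, adjusted p = 0.00155). The call in total mRNA was lost without total Torin1 replicate 1 (limma, adjusted p = 0.0523) or replicate 3 (limma, adjusted p = 0.0562) and held without replicate 2 (limma, adjusted p = 0.0445). When only the column total was used for scaling neither call held, at -0.41 in total mRNA (limma, adjusted p = 0.0545) and -0.30 in polysome mRNA (limma, adjusted p = 0.0902), a scaling that shifts the median gene of the polysome comparison by 0.244 on the log2 scale.

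Zmat3 encodes a zinc finger RNA-binding protein that acts on splicing and mRNA stability (chromosome 3, 32334792 to 32365665). Its levels were 12.3, 12.4 and 12.7 ppm in total DMSO and 8.59, 9.06 and 9.25 ppm in total Torin1. Polysome libraries gave 9.05, 10.6 and 9.73 ppm in DMSO and 8.38, 7.57 and 5.75 ppm in Torin1. Neither pair of groups overlapped, but both calls were near the threshold. The log2 fold was -0.47 ± 0.13 in total mRNA (limma, adjusted p = 0.0484) and -0.45 ± 0.13 in polysome mRNA (limma, adjusted p = 0.0488). Leaving out any 1 of the 6 total libraries ended the total call, with adjusted p from 0.0993 to 0.129 in limma. Leaving out 1 polysome library ended the polysome call in 5 of 6 cases (highest limma adjusted p = 0.14, without polysome DMSO replicate 2). Under scaling to column totals only, the polysome fold was -0.20 (limma, adjusted p = 0.466).

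Gadd45g, a growth arrest and DNA damage gene of the family that binds stress kinase activators and cell cycle proteins (chromosome 13, 51846675 to 51848475), was the member that rose. It went from 63.9, 62.1 and 64.1 ppm in total DMSO to 88.0, 87.0 and 90.7 ppm in total Torin1. In polysome mRNA it went from 83.5, 83.7 and 87.2 ppm to 140, 122 and 128 ppm. Replicates were tight, and no Torin1 library came near a DMSO library. The log2 fold was 0.48 ± 0.06 in total mRNA (limma, adjusted p = 0.000892) and 0.62 ± 0.06 in polysome mRNA (limma, adjusted p = 7.74e-05). Both calls held under the alternatives run, except that the total fold was below 1.5-fold where that size was also asked for. Gadd45g is itself among the 7 intermediate progenitor markers. The summed level of the other 6 intermediate progenitor markers was 190 to 200 ppm in total DMSO and 280 to 287 ppm in total Torin1. In polysome mRNA it was 173 to 174 ppm in DMSO and 218 to 283 ppm in Torin1, with no marker at 0. Of these 6, Eomes, Neurog2, Btg2 and Insm1 passed in both fractions, all higher. Neurog1 (log2 fold -0.31 ± 0.25 in total and -0.41 ± 0.25 in polysome mRNA) and Mfap4 (0.02 ± 0.12 and 0.11 ± 0.12) passed in neither. Of the other marker lists all but the microglial one had a higher sum in total Torin1 as well, without overlap. Radial glia markers summed to 4163 to 4256 ppm there, neuronal markers to 3300 to 3399 ppm, endothelial markers to 16.7 to 17.4 ppm (11.9 to 13.3 ppm in DMSO), and mural and meningeal markers to 35.6 to 42.7 ppm (25.7 to 28.7 ppm in DMSO). The microglial list gave 11.2 to 17.6 ppm in total DMSO and 13.7 to 17.4 ppm in total Torin1. Few single markers passed in total mRNA. They were 4 of 13 radial glia, 2 of 10 neuronal, 1 of 7 endothelial, 2 of 7 mural and meningeal and 0 of 6 red blood cell markers. All of these were higher, but other markers had folds below 0, among them Fabp7 (-0.14 ± 0.21), Tubb3 (-0.10 ± 0.09) and Rgs5 (-0.17 ± 0.34). In polysome mRNA the radial glia, neuronal, microglial and red blood cell lists overlapped between treatments. The part of these cell types in the Gadd45g result was not tested.

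Gadd45a, the p53-responsive member of the same family, had 11.4, 10.4 and 11.1 ppm in total DMSO and 11.9, 14.5 and 10.9 ppm in total Torin1. In polysome mRNA it had 11.1, 9.52 and 9.21 ppm in DMSO and 10.8, 11.8 and 16.9 ppm in Torin1. The groups overlapped in both fractions. Neither difference passed (log2 fold 0.17 ± 0.16 in total and 0.38 ± 0.16 in polysome mRNA, limma, adjusted p = 0.614 and 0.178). Under scaling to column totals only, the polysome fold was 0.62 and passed (limma, adjusted p = 0.0134). E230016M11Rik overlaps Gadd45a in RefSeq and stood at 0.429 to 2.14 ppm over all libraries. Whether counting used strand is not given in the sources.

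Gadd45b, the third member of the family, was the scarcest of the 3 in every library, with 1.79 to 3.25 ppm in total DMSO and 2.38 to 3.08 ppm in total Torin1. Polysome libraries held 2.64 to 4.67 ppm in DMSO and 4.22 to 4.72 ppm in Torin1. The groups overlapped, and with folds of 0.26 ± 0.25 and 0.23 ± 0.25 a change of the size seen for Gadd45g lay inside both 95% intervals (-0.30 to 0.81 and -0.32 to 0.78). The sources do not say whether deposited values are per transcript length, so the order of the family's levels compares these values only.

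Ccng1 encodes cyclin G1, which brings the phosphatase PP2A to MDM2 (chromosome 11, 40748552 to 40755309). Total DMSO libraries had 23.0, 23.0 and 25.1 ppm and total Torin1 libraries 18.5, 17.6 and 18.2 ppm, without overlap. The log2 fold of -0.39 ± 0.13 did not pass (limma, adjusted p = 0.104), but did in a fit of the total libraries alone (limma, adjusted p = 0.0099). In polysome mRNA DMSO gave 17.4, 18.9 and 17.6 ppm and Torin1 13.46, 15.2 and 20.9 ppm, a fold of -0.15 ± 0.13 (limma, adjusted p = 0.56). Replicate 3 of polysome Torin1 lay above every DMSO library there. Without it the fold was -0.33 and passed (limma, adjusted p = 0.0223).

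Trp53 itself (chromosome 11, 69580348 to 69591873) had 86.9, 82.4 and 80.7 ppm in total DMSO and 72.5, 75.5 and 72.1 ppm in total Torin1. The groups did not overlap, as in 33.4% of all genes tested in total mRNA (18.7% with Torin1 lower). The log2 fold of -0.18 ± 0.09 did not pass (limma, adjusted p = 0.241), with a 95% interval from -0.37 to 0.00, but passed in a fit of the total libraries alone (limma, adjusted p = 0.0347). Polysome DMSO libraries had 87.1, 96.7 and 98.2 ppm and polysome Torin1 libraries 94.9, 91.6 and 75.4 ppm, which overlapped (log2 fold -0.11 ± 0.09, limma, adjusted p = 0.478), and the sign turned (0.13) under scaling to column totals only. The neighbouring gene Wrap53, which lies 97 bases from Trp53 in RefSeq and helps assemble telomerase, fell in total mRNA from 11.5 ± 0.568 to 6.40 ± 0.554 ppm (SD, n = 3; limma, adjusted p = 0.00158).

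Mdm4, the relative of MDM2 that covers p53's activating domain (chromosome 1, 132986105 to 133030587), had 49.5, 42.4 and 53.6 ppm in total DMSO and 47.0, 53.1 and 47.4 ppm in total Torin1. Polysome levels were 28.9, 26.5 and 24.3 ppm in DMSO and 22.2, 32.8 and 29.3 ppm in Torin1. The groups overlapped in each fraction, unlike those of Mdm2. The folds were 0.02 ± 0.13 and 0.07 ± 0.13, with 95% intervals from -0.27 to 0.32 and from -0.23 to 0.36. The difference between the Mdm2 and Mdm4 responses was not tested.

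Trp53inp1 encodes a protein active in p53-dependent stress responses and autophagy (chromosome 4, 11156441 to 11174379). It had 30.3, 29.2 and 29.7 ppm in total DMSO and 27.9, 28.9 and 27.2 ppm in total Torin1. In polysome mRNA the values were 30.7, 28.7 and 25.4 ppm in DMSO and 22.5, 27.8 and 39.7 ppm in Torin1. Replicate 3 of polysome Torin1 was again the highest. The folds were -0.09 ± 0.16 and 0.05 ± 0.16 and neither passed, and without that replicate the polysome fold was -0.17.

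**Figure D2:**
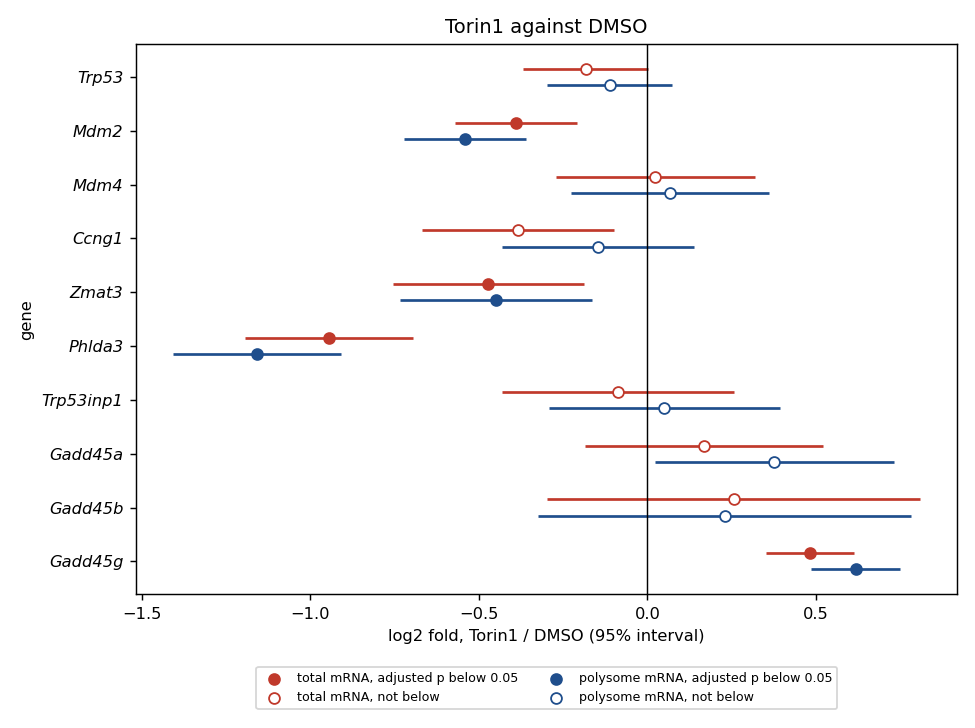
Log2 fold of Torin1 against DMSO (horizontal axis) for the 10 genes in total mRNA (red) and polysome mRNA (blue); lines are 95% intervals from limma and filled points have an adjusted p below 0.05. The 3 lower genes and Gadd45g are filled in both colours, and the red and blue intervals of each gene overlap.

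The interaction asked whether Torin1 changed polysome association relative to other mRNAs, that is, whether its effect differed between polysome and total mRNA. A shift of polysome association shared by most mRNAs is removed by the scaling and was not measured. None of the 10 members passed (limma, adjusted p 0.987 to 1.00), and none had an unadjusted p below 0.05. Over all genes tested 0.726% passed (0.0198% higher and 0.707% lower), and 0.716% with at least 1.5-fold. The interaction was -0.21 ± 0.16 for Phlda3 (95% interval -0.56 to 0.14), -0.15 ± 0.12 for Mdm2 (-0.41 to 0.10), 0.02 ± 0.18 for Zmat3 (-0.38 to 0.42) and 0.13 ± 0.09 for Gadd45g (-0.05 to 0.32). Under scaling to column totals only, the signs for Phlda3 and Mdm2 turned (0.059 and 0.12).

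Within a treatment the members differed in their share of polysome mRNA, as the plot of polysome against total mRNA shows. In DMSO 6 of 10 passed, 3 higher in polysome mRNA (Phlda3, Gadd45b and Gadd45g) and 3 lower (Mdm4, Ccng1 and Zmat3), against 41.0% of all genes (20.5% higher and 20.5% lower). Phlda3 was at 0.99 ± 0.11 on the log2 scale (limma, adjusted p = 2.3e-05) and Mdm4 at -0.86 ± 0.13 (limma, adjusted p = 0.00024), the highest and lowest of the 10. Gadd45b was at 0.69 ± 0.25, Gadd45g at 0.42 ± 0.06, Ccng1 at -0.40 ± 0.13 and Zmat3 at -0.35 ± 0.13. Trp53 (0.17 ± 0.09), Trp53inp1 (-0.08 ± 0.16), Gadd45a (-0.14 ± 0.16) and Mdm2 (-0.15 ± 0.08) did not pass. The Gadd45b call (limma, adjusted p = 0.0471) did not hold in 4 of 6 fits that left out 1 DMSO library, nor the Zmat3 call (limma, adjusted p = 0.0498) in 5 of 6. The Ccng1 call (limma, adjusted p = 0.0274) did not hold in 3 of 6. Scaling to column totals only moved the median gene by -0.37 and left Gadd45g at 0.04 (limma, adjusted p = 0.701) and Gadd45b at 0.32 (limma, adjusted p = 0.37). With at least 1.5-fold also asked for, 3 of 10 passed (26.8% of all genes). Under column totals Phlda3 was at 0.62 and Mdm4 at -1.24, and both passed. Mdm2 (-0.52, limma, adjusted p = 0.00178), Gadd45a (-0.52, limma, adjusted p = 0.0113) and Trp53inp1 (-0.45, limma, adjusted p = 0.0226) passed there too. Trp53 passed under upper-quartile scaling (0.27, limma, adjusted p = 0.0221), where Ccng1 did not (-0.30, limma, adjusted p = 0.0874). With each culture as a block the Zmat3 call was lost (limma, adjusted p = 0.0861).

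In Torin1 5 of 10 passed, 3 higher in polysome mRNA (Phlda3, Gadd45g and Trp53) and 2 lower (Mdm4 and Mdm2), against 39.6% of all genes (20.4% higher and 19.2% lower). With at least 1.5-fold also asked for, 2 of 10 passed (25.0% of all genes). Phlda3 was at 0.78 ± 0.11, Gadd45g at 0.55 ± 0.06, Trp53 at 0.24 ± 0.09, Mdm2 at -0.30 ± 0.08 and Mdm4 at -0.82 ± 0.13. The Trp53 call (limma, adjusted p = 0.0384) did not hold in 5 of 6 fits that left out 1 Torin1 library, nor under scaling to column totals only (0.14, limma, adjusted p = 0.406). It was also lost with each culture as a block (limma, adjusted p = 0.0586). Gadd45b (0.66 ± 0.25, limma, adjusted p = 0.0572) and Zmat3 (-0.32 ± 0.13, limma, adjusted p = 0.067) narrowly missed the threshold, and each passed under 3 alternatives. Ccng1 (-0.16 ± 0.13) passed without polysome Torin1 replicate 3 (-0.34, limma, adjusted p = 0.00559).

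**Figure D3:**
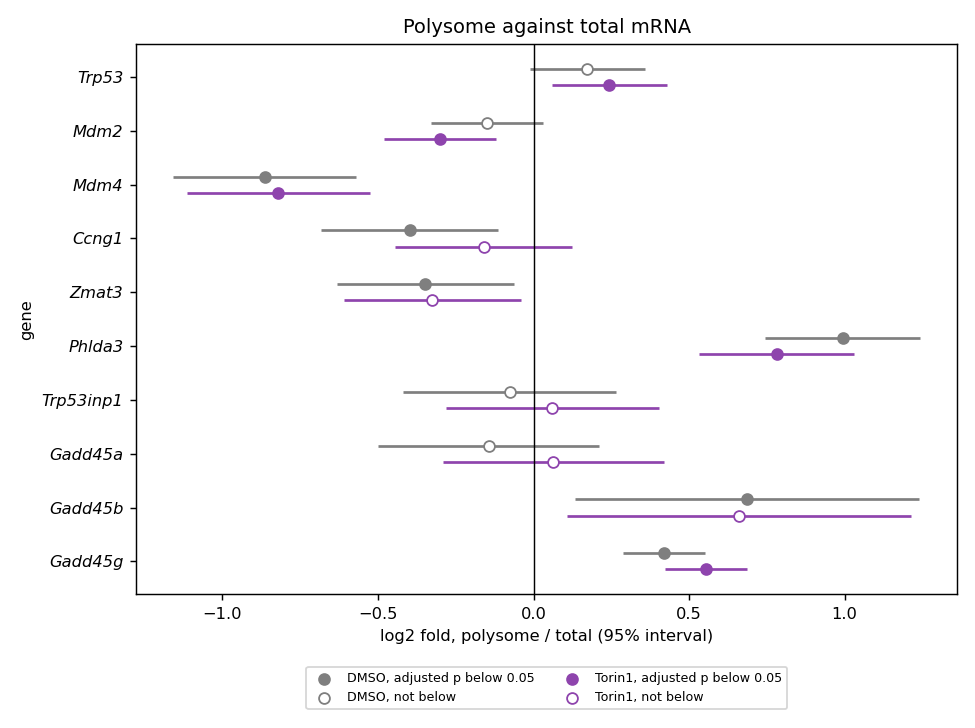
Log2 fold of polysome against total mRNA (horizontal axis) for the 10 genes in DMSO (grey) and Torin1 (purple); lines are 95% intervals from limma and filled points have an adjusted p below 0.05. Phlda3 and Gadd45g lie to the right of 0 and Mdm4 to the left in both treatments.

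Among 49 other p53 target genes, 2 rose and 4 fell in total mRNA and 3 rose and 5 fell in polysome mRNA, with medians of -0.08 and -0.05, against 3.04% higher and 4.35% lower of all genes in total mRNA and 4.57% and 5.45% in polysome mRNA. The falls in total mRNA were Sesn2, an inhibitor of mTORC1 signalling (log2 fold -1.21 ± 0.13), Sertad1, a transcriptional coregulator gene (-1.36 ± 0.29), Tigar, which encodes a fructose bisphosphatase that restrains glycolysis (-0.69 ± 0.12), and the nuclease gene Aen (-0.60 ± 0.09). The rises were Btg2, an antiproliferative gene that is also among the intermediate progenitor markers (0.68 ± 0.06), and the kinase gene Plk2 (0.23 ± 0.06). In polysome mRNA all 6 passed in the same direction, joined by Pmaip1, which encodes the death protein NOXA (1.19 ± 0.21), and Triap1 (-0.45 ± 0.11). Pmaip1 was scarce, at 1.3 to 2.1 ppm in polysome DMSO and 3.4 to 4.6 ppm in polysome Torin1. Its fold in total mRNA did not pass (0.60 ± 0.21, limma, adjusted p = 0.11). The cell cycle inhibitor gene Cdkn1a (-0.16 ± 0.12 in total and -0.21 ± 0.12 in polysome mRNA) and the death genes Bax (-0.10 ± 0.10 and 0.01 ± 0.10) and Bbc3 (-0.27 ± 0.17 and 0.17 ± 0.17) did not pass. None of the 49 passed in the interaction. Aen, Btg2, Plk2, Triap1, Cdkn1a, Bax and Bbc3 were singled out after their values were seen.

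Of 50 p53 regulators and partners tested, 0 rose and 6 fell in total mRNA, and 1 rose and 11 fell in polysome mRNA, with medians of -0.135 and -0.143. Of all genes tested 3.04% were higher and 4.35% lower in total mRNA, and 4.57% and 5.45% in polysome mRNA. At an unadjusted p below 0.05 in limma, 1 of the 50 was higher in total mRNA. Hexim1, a binder of p53 and of transcription elongation factor P-TEFb (-0.62 ± 0.09), Trp53bp2, which steers p53 toward death genes (-0.54 ± 0.09), and Wrap53 (-0.85 ± 0.12) had the largest falls in total mRNA. In polysome mRNA the ribosomal protein genes Rpl26, Rpl23, Rpl11 and Rpl5 fell. Rpl11 and Rpl5 bind MDM2 when ribosome assembly is disturbed. Rpl11 went from 3263 ± 519 to 1764 ± 337 ppm and Rpl5 from 1486 ± 148 to 825 ± 166 ppm in polysome mRNA, while in total mRNA neither passed. Of the 3 regulators that passed in the interaction, all lower, Rpl26 was at -1.45 ± 0.25, Rpl23 at -1.06 ± 0.21 and Rpl5 at -1.03 ± 0.17. Those 3 encode ribosomal proteins, and Rpl11 narrowly missed the threshold (-0.96 ± 0.20, limma, adjusted p = 0.0535). None of the lists was recomputed under other settings.

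Among 21 GADD45 partners and stress kinase genes, 1 rose and 4 fell in total mRNA and 1 rose and 3 fell in polysome mRNA, with medians of -0.10 and -0.06. Of all genes 7.39% passed in total mRNA (3.04% higher and 4.35% lower) and 10.0% in polysome mRNA (4.57% higher and 5.45% lower). Mapk14, the p38 kinase gene, fell from 31.4 ± 2.61 to 21.2 ± 0.957 ppm in total and from 31.5 ± 1.69 to 20.4 ± 2.43 ppm in polysome mRNA. Genes of its activating kinases moved apart, with Map2k3 at -0.64 ± 0.14 and Map2k6 at 0.38 ± 0.08 in total mRNA. Ing1, a chromatin reader gene, had -0.60 ± 0.09 in polysome mRNA.

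**Figure D4:**
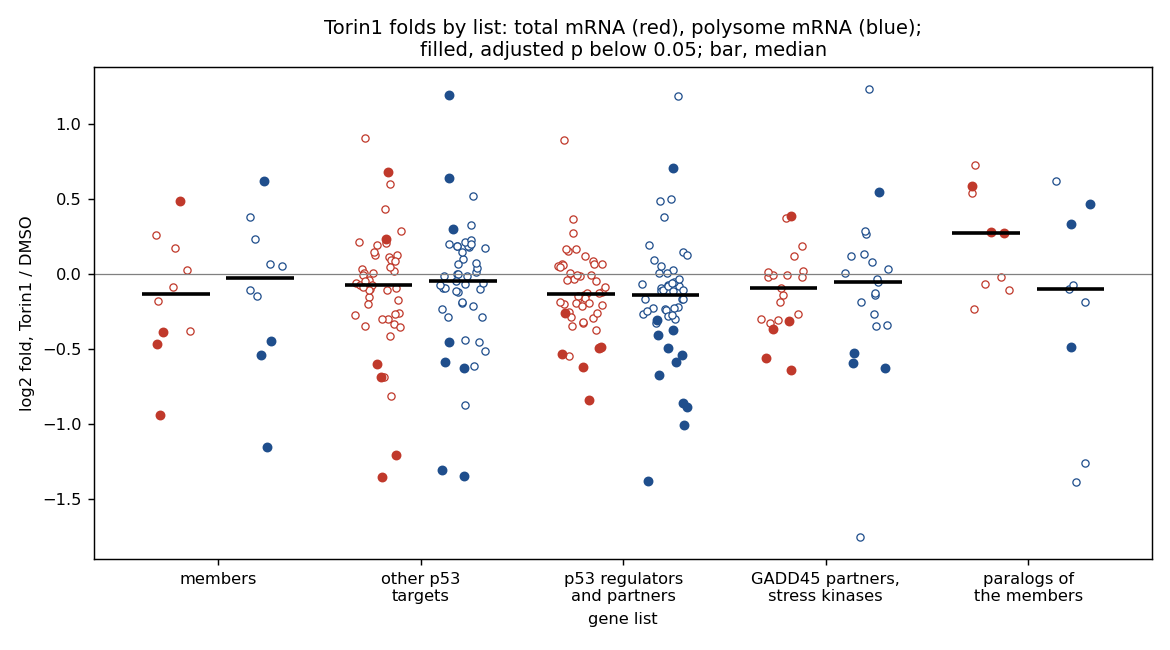
Log2 fold of Torin1 against DMSO (vertical axis) for the 10 members and 4 lists of related genes (horizontal axis), in total mRNA (red) and polysome mRNA (blue); each point is a gene, filled where the adjusted p is below 0.05, and bars are medians. Filled points lie on both sides of 0 in the members and in the other p53 targets.

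Across the 12 libraries the members' levels varied in how far they followed that of Trp53. Pearson's r of log2 levels was 0.84 between Trp53 and Phlda3, 0.45 with Gadd45b, 0.19 with Zmat3, 0.12 with Gadd45g and 0.08 with Mdm2. It was -0.35 with Ccng1, -0.44 with Trp53inp1, -0.62 with Gadd45a and -0.72 with Mdm4. The pair most alike was Mdm2 and Zmat3 (0.87), and the pair most opposed was Mdm2 and Gadd45g (-0.92). These values describe 12 libraries that fall into 4 groups, so treatment and fraction enter them. A ranking by r took in 8696 other genes with a mean log2 level of at least 3 in ppm. Genes with predicted, Rik, pseudogene or accession names were left out of it. The genes most like Trp53 were Trim35 (0.956), Csnk1d (0.953) and Ldb1 (0.949). Trim35 is also among the other p53 targets and Csnk1d among the regulators. Those most like Mdm2 were Trim26 (0.960), Pik3r3 (0.956) and Nup50 (0.956).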

How the data were processed

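Polysome and total mRNA libraries were read from 1 deposited table of gene values. The deposited values are a scaled abundance signal and not read counts: within a column nearly all are whole multiples of 1 step, and all columns hold nearly the same number of steps. Per the submitters' processing notes, HTSeq 0.6.0, STAR 2.7.9a and the mm10 build were used, in roles that are not stated. How the authors scaled the values, gene length and strand use are not given in the sources used here. Here each value was divided by its column total and by a trimmed-mean factor (trims of 0.3 for ratios and 0.05 for abundance), averaging 1.10 in total DMSO, 1.08 in total Torin1, 0.846 in polysome DMSO and 1.00 in polysome Torin1. Tests covered the 20240 genes whose deposited value reached 1 in 3 or more libraries.

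The main test was limma (version 3.58.1, R 4.3.3), fitted with 4 group means and a trended variance to log2(scaled value + 1), where the scaled value is on the deposited scale. All 12 libraries shared 1 estimate of the spread per gene, whether or not the groups varied alike. Folds on this scale understate the change of low genes. P-values were adjusted by Benjamini-Hochberg over all genes tested in each of 5 comparisons, with a threshold of 0.05, and the script was tested on simulated data. That simulation placed changes in total Torin1 only, with 1 spread per gene for all libraries, so it does not cover polysome or interaction calls. Members and lists were chosen with earlier results of these data known. All members were named, and from each list at most the 3 genes with the largest fold among those that passed for Torin1 in either fraction or in the interaction, plus the 3 genes most like Trp53 and Mdm2 by Pearson's r. Replicates within a group correlated at 0.973 to 0.992. Same-numbered libraries did not deviate together, with r from -0.217 to 0.311, so the numbers were not taken as pairs. Alternatives covered scaling, filters, the pseudocount, the libraries fitted, a replicate block, each library left out and a minimum fold.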

Additional observations from a re-analysis of the deposited data

How the results depend on the processing

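The depth in reads is unknown, so precision rests on 3 libraries per group. Phlda3 and Gadd45g kept direction and call for Torin1 against DMSO in both fractions under the alternatives that gave a value, except that Gadd45g in total mRNA was below 1.5-fold where that size was also asked for. Phlda3 and Gadd45b lay below a mean log2 level of 3 in ppm, so the fit of expressed genes only gave no value for them. Of 770 alternative values for single members, 665 kept direction and side of the threshold, 54 lost the call, 15 gained it and 36 changed sign. The cause of the changes was not tested. Fits without a library also have fewer samples, and the minimum fold gave counts only and is not among these values.

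Under scaling to column totals only, which shifts the median gene by 0.244 in the polysome, 0.268 in the interaction, -0.37 in the DMSO and -0.102 in the Torin1 fraction comparison, genes called for Torin1 went from 1496 to 841 in total mRNA and from 2028 to 3240 in polysome mRNA, and members called in total mRNA from 4 to 2. The share of calls that were higher went from 45.6% to 89.8% in polysome mRNA, from 2.7% to 21.2% in the interaction and from 50.1% to 21.6% for polysome against total in DMSO, and with upper-quartile scaling from 41.1% to 52.9% in total mRNA. Signs that turned with the column total were those of Mdm4 in total mRNA (-0.00089), Trp53 (0.13) and Ccng1 (0.099) in polysome mRNA, Mdm2 (0.12), Phlda3 (0.059) and Gadd45b (0.24) in the interaction, Trp53 (-0.20) for polysome against total in DMSO, and Trp53inp1 (-0.042) and Gadd45a (-0.039) in Torin1. With median-of-ratios and upper-quartile scaling the interaction of Zmat3 was -8.7e-05 and -0.000963, and with the latter Trp53inp1 was at 0.025 for polysome against total in DMSO.

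In fits of the compared groups alone 2655 genes were called in total and 433 in polysome mRNA. This reverses the order of the main fit, in which all 12 libraries share 1 estimate of the spread per gene. Requiring at least 1.5-fold left 644 and 945 genes, 5426 for polysome against total in DMSO (from 8306) and 5070 in Torin1 (from 8025), and left 1, 2, 3 and 2 members called in these comparisons. Leaving out 1 library at a time gave 739 to 898 genes and 2 to 3 members in total mRNA, 1194 to 2722 genes in polysome mRNA, 99 to 224 genes in the interaction, and 3 to 5 members for polysome against total in DMSO. It turned signs for Mdm4 in total mRNA (-0.074 to 0.099), for Gadd45b (-0.020 to 0.39), Trp53inp1 (-0.17 to 0.24) and Mdm4 (-0.046 to 0.23) in polysome mRNA, for Gadd45b (-0.28 to 0.16), Mdm4 (-0.068 to 0.20), Zmat3 (-0.092 to 0.18) and Trp53inp1 (-0.084 to 0.33) in the interaction, and for Gadd45a (-0.13 to 0.19) and Trp53inp1 (-0.16 to 0.25) for polysome against total in Torin1.

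By the protocol a total and a polysome library share a lysate, but the labels do not say that equal numbers mark it, and same-numbered libraries did not deviate together. With the replicate number as a block 1269 genes and 3 members were called in total mRNA, 1868 genes and 3 members in polysome mRNA, 147 genes and 0 members in the interaction, 8212 genes and 5 members for polysome against total in DMSO, and 7892 genes and 6 members in Torin1. The calls lost were those of Zmat3 for Torin1 in total mRNA (limma, adjusted p = 0.0729), in polysome mRNA (0.0709) and for polysome against total in DMSO (0.0675), and the call gained was that of Gadd45b in Torin1 (0.0498). With each culture as a block the interaction called 91 genes in place of 147 and 0 members, and polysome against total lost Zmat3 in DMSO (0.0861) and Trp53 in Torin1 (0.0586).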

Other observations

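Among 9 paralogs of the members, 3 rose in total mRNA with Torin1, and 2 rose and 1 fell in polysome mRNA. Of all genes tested 3.04% were higher in total mRNA, and 4.57% were higher and 5.45% lower in polysome mRNA. Phlda1, whose product shares the pleckstrin homology domain of PHLDA3, rose from 24.4 ± 1.84 to 36.5 ± 1.27 ppm in total mRNA (SD, n = 3; limma, adjusted p = 0.00384). In polysome mRNA it rose from 28.1 ± 0.782 to 39.0 ± 5.42 ppm (SD, n = 3; limma, adjusted p = 0.00934), while Phlda3 fell in both fractions. Ccng2, which encodes cyclin G2, rose from 80.01 ± 6.89 to 96.8 ± 1.99 ppm in total mRNA and from 79.4 ± 5.81 to 99.8 ± 1.68 ppm in polysome mRNA.

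Ccni, which encodes cyclin I, moved in opposite directions in the fractions. Total DMSO libraries had 253, 244 and 237 ppm and total Torin1 libraries 309, 281 and 297 ppm. Polysome DMSO libraries had 225, 210.4 and 212 ppm and polysome Torin1 libraries 158, 154 and 149 ppm. The groups did not overlap in either fraction, with Torin1 higher in total and lower in polysome mRNA. The interaction was -0.76 ± 0.08 (limma, adjusted p = 0.000923).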
